A study of Mus musculus with 24 samples.

Results

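The 10 genes described here encode the 5 subunits of the transcription factor NF-kB (Nfkb1, Nfkb2, Rel, Rela and Relb) and 5 inhibitor proteins of the I-kappa-B family (Nfkbia, Nfkbie, Nfkbiz, Nfkbid and Bcl3). They were taken from a list of gene names that applies no measured threshold, although earlier results of these data were known when it was drawn up, and all 10 of 10 were found, with 12 probes among the 26437 probes that could be given 1 of 20028 gene symbols. The 24 arrays, 1 per condition, hold T helper cells of female C57BL/6 mice that were differentiated in vitro from naive T cells into Th1 cells (14 arrays) or Th2 cells (10 arrays). Cells were given DMSO, the drug's solvent, as control (6 arrays), JQ1 at 50 or 500 nM (10 arrays), or flavopiridol at 1 or 10 µM (8 arrays), and each treatment was measured in unstimulated and in reactivated cells. The treatment time was 6 hr, with a further time of 24 hr for the DMSO and 500 nM JQ1 arms of the Th1 cells. The time of the Th2 DMSO arrays is unclear, because their titles and source names differ (24 and 6 hr). JQ1 blocks the acetyl-lysine pockets of BET proteins, and flavopiridol inhibits Cdk9, the kinase of the elongation factor P-TEFb. The labels do not name the reactivating agent, nor the age or number of the animals, and populations differentiated in culture are mixtures and not single clones.

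NF-kB subunits are held inactive in the cytoplasm by I-kappa-B proteins, and signals from the T cell receptor, costimulatory receptors and cytokine receptors activate a kinase complex that marks the inhibitors for destruction. The freed dimers enter the nucleus and switch on genes for cytokines, survival and adhesion, among them the genes of several subunits and inhibitors, so that the pathway feeds back on itself. Rela, Rel and Relb carry their own activation domain, Nfkb1 and Nfkb2 encode precursors that are cut to the p50 and p52 subunits, and Nfkbiz, Nfkbid and Bcl3 encode atypical I-kappa-B proteins that act in the nucleus.

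Promoter sequences are shown for 4 of the members that rose on reactivation, because promoters of several genes of this family are known to hold binding sequences of NF-kB itself. Windows of 250 bases before the transcription start were available from RefSeq (GRCm38.p6) for 7 of the 10 genes, in 11 windows. They were searched on both strands for the kappaB consensus and for the shorter GGGNNTTTC, which overlaps it. The kappaB consensus was present in 7 of 11 windows and in 5 of the 7 genes, and in 7.25% of all 32851 windows. GGGNNTTTC was present in 6 of 11 windows and in 4 of the 7 genes, and in 3.72% of all windows. In the sequences below, written 5′ to 3′ on the gene's strand, capitals mark bases in a match on either strand.
Nfkbia (chr12:55492648-55492897, minus strand): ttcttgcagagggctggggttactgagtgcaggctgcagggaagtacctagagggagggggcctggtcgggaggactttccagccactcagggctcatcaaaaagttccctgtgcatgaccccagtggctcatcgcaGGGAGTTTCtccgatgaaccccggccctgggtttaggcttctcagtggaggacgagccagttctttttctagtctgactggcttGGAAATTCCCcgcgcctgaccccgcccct
Nfkb2 (chr19:46304487-46304736, plus strand): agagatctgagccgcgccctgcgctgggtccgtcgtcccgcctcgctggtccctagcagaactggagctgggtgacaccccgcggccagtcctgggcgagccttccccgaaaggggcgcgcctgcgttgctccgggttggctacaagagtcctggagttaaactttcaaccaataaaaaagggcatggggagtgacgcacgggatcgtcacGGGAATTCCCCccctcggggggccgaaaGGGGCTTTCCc
Nfkbid (chr7:30422156-30422405, plus strand): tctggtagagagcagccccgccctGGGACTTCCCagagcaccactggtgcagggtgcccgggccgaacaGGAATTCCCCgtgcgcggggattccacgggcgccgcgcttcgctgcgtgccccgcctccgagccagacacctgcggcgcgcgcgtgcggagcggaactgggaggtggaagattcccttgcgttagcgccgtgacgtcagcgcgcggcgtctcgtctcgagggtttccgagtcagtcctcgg
Rel (chr11:23770970-23771219, minus strand): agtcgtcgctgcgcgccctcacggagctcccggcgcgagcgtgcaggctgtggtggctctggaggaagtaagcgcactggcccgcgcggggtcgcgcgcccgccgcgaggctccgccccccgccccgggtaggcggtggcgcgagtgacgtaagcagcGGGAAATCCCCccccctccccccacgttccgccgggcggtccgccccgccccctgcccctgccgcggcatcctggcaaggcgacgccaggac
The consensus in Nfkbia lay 29 to 20 bases before the start, and a separate GGGNNTTTC lay 113 to 105 bases before it. Nfkb2 held consensus matches 39 to 29 and 11 to 2 bases before the start, Nfkbid 226 to 217 and 181 to 172 bases before it, and Rel 92 to 82 bases before it. The other 2 Nfkb2 windows, not shown, held both motifs. The Rela window, of another gene that rose, held GGGNNTTTC but not the consensus, and the Nfkbie window, of a gene that did not pass the test on reactivation without drug, held the consensus. The other 2 Nfkbid windows and the Bcl3 window held neither motif. A match is a description of letters and does not show binding.

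Each array carried sample RNA in Cy3 and, in Cy5, RNA of naive CD4+CD62L+CD25-CD44lo T cells from lymph nodes and spleens, with no dye swap. All member values are therefore log2 ratios to naive cells, where 0 means the level of the naive reference, and levels of different genes cannot be ordered. Levels, changes and differences below are on this log2 scale unless a fold is named, and a change is called only where its adjusted p is below 0.05. The number of arrays limits the precision, and tests used different conditions in place of replicates, so that the error is the spread between conditions. Between 35.4% and 52.0% of probes were well above background in Cy3, and the flavopiridol arrays (35.4% to 41.5%) lay below all others (43.8% to 52.0%). All 6 T cell markers were well above background on all 24 arrays. Summed Th1 markers were higher in Th1 than in Th2 cells in 10 of 10 matched conditions, and summed Th2 markers were higher in Th2 cells in 7 of 10. Of the members, 8 were well above background in Cy3 on all 24 arrays, Nfkbiz on 22 (on all but 2 unstimulated flavopiridol arrays) and Rel on 8, and no member was saturated. Across arrays the members' Cy5 signal spanned 0.274 to 0.772 log2 units and their Cy3 signal 1.92 to 8.31 log2 units. On arrays of mixed cells, a change in the number of expressing cells and a change of RNA per cell cannot be told apart.

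Before reactivation, DMSO-treated T helper cells already differed from naive cells in 4 of the 10 members. Nfkb2, the precursor of p52, was higher than in naive cells by 2.19 in Th1 cells at 6 hr, 1.67 at 24 hr and 0.60 in Th2 cells (mean 1.48 ± 0.81, SD, n = 3, adjusted p = 0.00345 by limma). Relb, the partner of p52 in the alternative NF-kB pathway, was higher by 2.38, 1.36 and 0.46 on the same arrays (1.40 ± 0.96, adjusted p = 0.00689). Both subunits were thus highest in Th1 cells at 6 hr and lowest in Th2 cells. Nfkbiz, a nuclear I-kappa-B protein that can act as a coactivator, lay below the naive level at -0.68, -1.13 and -2.09 (adjusted p = 0.00701). Nfkbid, another nuclear I-kappa-B protein, lay below it at -0.67, -0.88 and -1.75 (adjusted p = 0.0127). Among all genes tested 33.5% were higher and 25% lower in this comparison. In the same comparison 3 of 4 B cell markers were higher (median 1.72) and 5 of 6 T cell markers lower (median -0.78), and the part of other cell types in these differences was not tested. The calls for Nfkb2, Relb and Nfkbiz were lost when the Th1 24 hr array was left out, and dye bias cannot be told apart from a difference from naive cells. The remaining members lay between -0.85 (Bcl3 in Th2) and 1.73 (Bcl3 in Th1 at 6 hr), and Bcl3 had the widest spread of all members at 0.68 ± 1.36.

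**Figure D1:**
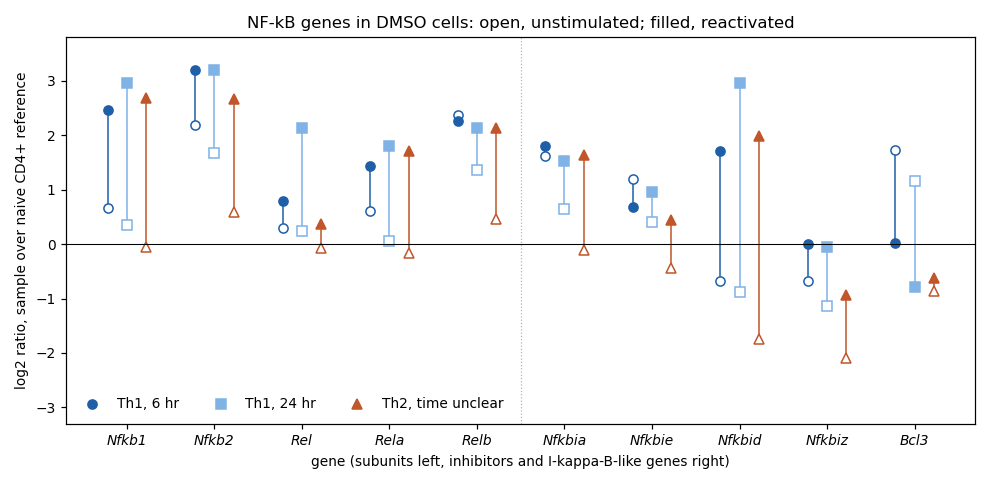
Log2 ratio to naive T cells (vertical axis) of each of the 10 genes (horizontal axis) in the 6 DMSO arrays, open symbols for unstimulated and filled symbols for reactivated cells, with Th1 at 6 hr, Th1 at 24 hr and Th2 cells in separate colours and shapes. The filled symbols of Nfkb1 sit between 2.46 and 2.95, above its open symbols at -0.04 to 0.66, while the open Bcl3 symbols spread from -0.85 to 1.73.

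Reactivation of DMSO-treated cells raised 7 of the 10 members and lowered none, against 21.9% of all genes raised and 29% lowered. The 7 include Rel, which met the background filter only through its reactivated arrays, so its call is not read as a test. In the same comparison 4 of 6 T cell markers (median -0.62), 5 of 5 naive T cell markers (median -1.93) and the 1 natural killer marker tested (-0.85) fell, and 1 of 4 B cell markers rose and 1 fell. The part of these shifts in the members' changes was not tested. Nfkb1, the precursor of p50, went from 0.66 to 2.46 in Th1 cells at 6 hr, from 0.35 to 2.95 at 24 hr and from -0.04 to 2.68 in Th2 cells. Every reactivated array lay above every unstimulated one, and the change was 2.38 (SE 0.20, adjusted p = 0.000383). Rela, the main activating subunit, went from 0.61 to 1.44, from 0.05 to 1.79 and from -0.17 to 1.71 in the same order, a change of 1.48 (SE 0.22, adjusted p = 0.00228). Nfkb2 started high and rose to 3.21, 3.19 and 2.67, by 1.54 (SE 0.21, adjusted p = 0.00163). Rela and Nfkb2 also showed no overlap between the states, and a second Nfkb1 probe gave 2.31. Of all genes 32.3% were higher in 3 of 3 pairs, and the share without overlap was not computed. Rel, the c-Rel subunit of activated lymphocytes, was well above background on all 8 reactivated arrays with DMSO or JQ1, on 0 of the 8 unstimulated arrays with them and on 0 of the 8 flavopiridol arrays. Its rise with DMSO is therefore a bound, of at least 1.69-fold in Cy3. For it, the unstimulated arrays were set to the higher of their own signal and the lowest signal called above background. The bound carries no test. The Cy3 signal of Rel on the reactivated arrays was 6.69, 7.84 and 6.35 log2 units. Relb changed by -0.12 in Th1 cells at 6 hr, by 0.76 at 24 hr and by 1.68 in Th2 cells and did not pass the test (mean 0.77, adjusted p = 0.0854). Its reactivated values were nearly equal (2.25, 2.12 and 2.14), so the pairs differed through their unstimulated levels.

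Of the inhibitors, Nfkbid changed most. It lay below the naive level on all 3 unstimulated DMSO arrays and reached 1.71, 2.95 and 1.98 after reactivation, a rise of 3.31 (SE 0.29, adjusted p = 0.000406). Nfkbiz rose by 0.97 (SE 0.14, adjusted p = 0.00231), with pair differences of 0.68, 1.07 and 1.15, from far below the naive level to values of 0.01, -0.06 and -0.93. Nfkbia, which encodes the classical inhibitor I-kappa-B alpha, rose by 0.94 (SE 0.28, adjusted p = 0.0313). Its pair differences were 0.19, 0.88 and 1.74, its reactivated values lay between 1.52 and 1.80, and its states overlapped because Th1 cells at 6 hr already stood at 1.61 without reactivation. The Nfkbia call was lost without the Th1 24 hr pair (adjusted p = 0.0748) or without the Th2 pair (adjusted p = 0.0705). Nfkbie, the inhibitor I-kappa-B epsilon, differed by -0.52, 0.55 and 0.88 and did not pass the test (adjusted p = 0.381). Bcl3, a nuclear I-kappa-B protein that joins p50 and p52 dimers, went the other way in Th1 cells, from 1.73 to 0.03 at 6 hr and from 1.16 to -0.80 at 24 hr. In Th2 cells it went from -0.85 to -0.62. The mean change of Bcl3 was -1.14 (SE 0.41, adjusted p = 0.0568), and with the Th2 pair left out it was -1.83 (adjusted p = 0.000351). Without the Th1 6 hr pair, Relb (1.22, adjusted p = 0.0137) and Nfkbie (0.72, adjusted p = 0.0244) passed the test as well. The median of the members was 0.96 and that of all genes tested -0.05. When arrays were shifted to their spike-in controls, the median of all genes was 0.23 and the called genes were 66.0% raised in place of 43.0%. After reactivation 7 members were called above naive cells, against 39.2% of all genes, among them Nfkb2 (3.02 ± 0.31, SD, n = 3) and Nfkb1 (2.70 ± 0.24). The 7 include Rel, which met the background filter only through its reactivated arrays and whose naive reference was not well above background. Rel therefore has no size here, and its call is not read as a test. Nfkbie (0.69, adjusted p = 0.0544), Nfkbiz (-0.33) and Bcl3 (-0.46) did not pass that test.

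Of the other genes of the pathway, some rose and some fell on reactivation without drug, to be read beside the 21.9% of all genes that rose and the 29% that fell. Of 12 kinases and adaptors, which carry the signal from the receptors to the inhibitors, 3 rose and 3 fell (median 0.15). The paracaspase gene Malt1 rose by 0.77 and the kinase gene Chuk by 0.51, and among those that fell was the kinase gene Prkcq (-1.31). Of 11 TRAF, cIAP and ubiquitin ligase genes, 2 rose (Traf1 1.72, Traf3 0.67) and 4 fell, with Birc2 (-0.75) and Rnf31 (-0.53) furthest (median 0.00). Of 9 further inhibitors, 3 rose and 2 fell (median 0.26). The inhibitor gene Nfkbib rose by 1.75 and Tnfaip3, the deubiquitinase A20, by 1.57, and Cyld, another deubiquitinase, fell by 1.41 and Tnip1, an A20-binding protein, by 1.25. Of 11 textbook target genes 8 rose and 1 fell (median 2.18). The cytokine gene Tnf rose by 3.82 and Myc by 3.30, and lymphotoxin beta, Ltb, fell by 1.80. These lists were compared with all genes only through the percentages above.

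Reactivation was also measured in drug-treated cells, each pair on 1 slide. With 500 nM JQ1, 9 of the 10 members rose, against 18.4% of all genes. The 9 include Rel, which again met the filter only through its reactivated arrays and lost its call in 5 of 11 alternatives. Its call is not read as a test. Of the markers, 5 of 6 of T cells (median -0.76), 3 of 5 of naive T cells and 1 of 4 of B cells fell, and their part was not tested. Nfkbid rose by 3.85, with pair differences of 2.51 in Th1 cells at 6 hr, 4.98 at 24 hr and 4.06 in Th2 cells. Nfkb1 rose by 2.71 (2.14, 2.99 and 2.99) and Rela by 2.17 (1.94, 2.23 and 2.33). These subunits thus reached 2.28 to 2.76 and 1.52 to 1.75 above naive cells in the presence of JQ1. Relb (1.50, adjusted p = 0.018), Nfkbia (1.66, adjusted p = 0.00943) and Nfkbie (1.31, adjusted p = 0.00563) passed the test here, and the smallest of the 3 pair differences of each was the Th1 6 hr pair, at 0.26, 0.48 and 0.64. The Relb call was lost without the Th2 pair (1.33, adjusted p = 0.0501). Bcl3 alone did not pass it, with differences of -0.29, 0.48 and 1.26 (adjusted p = 0.198). With spike-in controls as the scale the median of all genes was -0.48 in place of -0.06. There 3 or 4 members passed the test, and 987 or 1406 of 12130 genes were called. After loess the spike-in controls averaged -0.42 in unstimulated and 0.90 in reactivated Th1 cells at 6 hr. They averaged 0.20 and -0.19 in the 24 hr pair and -0.29 and 0.05 in Th2 cells. The reactivated Th1 array at 6 hr thus moved this scale most, and it also enters the spike-in values of the other 500 nM JQ1 comparisons below. Rel rose by at least 1.57-fold with 500 nM JQ1, again a bound in Cy3. With 50 nM JQ1 there was 1 pair for each cell type and no test, and Nfkbid differed by 2.52 in Th1 and 3.95 in Th2 cells, Nfkb1 by 1.34 and 2.89, and Bcl3 by -2.24 and 0.80.

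With flavopiridol, 0 of 9 members tested passed the adjusted threshold for reactivation, and 0.128% of all genes were called in either direction. An unadjusted p below 0.05 was found for 3 of 9 members and for 22.8% of all genes, so that the members' share was near that of all genes. The 14 genes called became 1232 with spike-in centring and 640 with the spike-in shift, where 5 and 3 members passed. Rel was not tested, because it was well above background on 0 of the 8 flavopiridol arrays. Differences of Nfkb1, Nfkb2, Rela and Bcl3 averaged between -0.17 and 0.04, so these genes sat at nearly the same ratio in both states. The 3 members with a low unadjusted p were inhibitors. Nfkbia differed by 3.31 in Th1 and 4.29 in Th2 cells at 1 µM and by 1.40 and 2.52 at 10 µM (adjusted p = 0.0659). Nfkbiz differed by 1.29 and 1.49 at 1 µM and by 0.48 and 1.07 at 10 µM (adjusted p = 0.0678). It was well above background on 3 of 4 arrays at each dose. The differences from the unstimulated arrays where it was not are bounds. Nfkbid differed by 4.45 and 5.53 at 1 µM and by 0.29 and 1.29 at 10 µM (adjusted p = 0.143). In Nfkbia and Nfkbid both differences at 1 µM were larger than both at 10 µM, and the difference between doses was not tested. Those of Nfkbiz include bounds and cannot be ordered by dose. Nfkbia and Nfkbiz passed the test without the Th1 10 µM pair (adjusted p = 0.0135 and 0.00949).

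**Figure D2:**
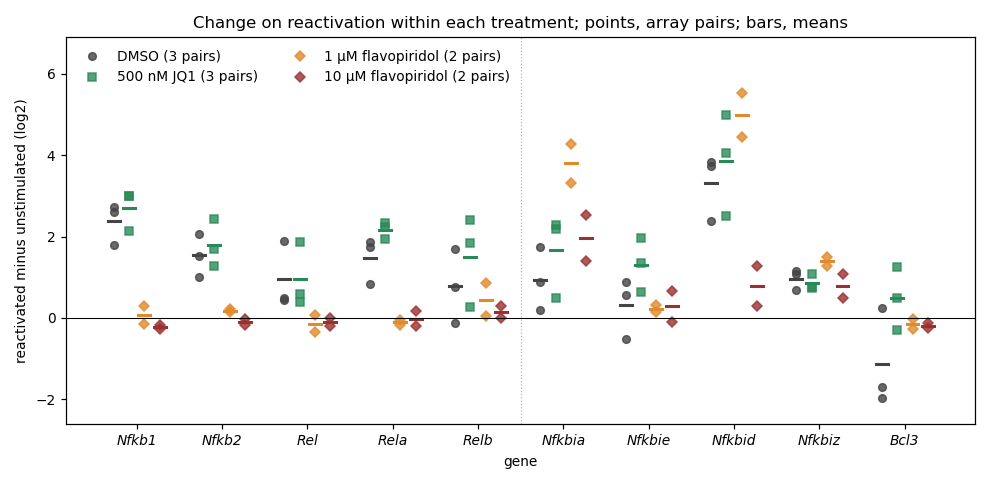
Reactivated minus unstimulated log2 ratio (vertical axis) of each gene (horizontal axis) for the DMSO, 500 nM JQ1, 1 µM and 10 µM flavopiridol pairs, where points are pairs and bars their means. Nfkb1 points lie between 1.80 and 2.99 for DMSO and JQ1 and near 0 for flavopiridol, and Nfkbid points for 1 µM flavopiridol lie at 4.45 and 5.53.

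Flavopiridol at 10 µM was compared with DMSO in 4 matched contexts, namely Th1 and Th2 cells, unstimulated and reactivated. It lowered 8 of 9 members tested and raised none, against 33.5% of all genes lowered and 15.4% raised. No flavopiridol array shared a slide with its DMSO control, so slide and drug cannot be told apart. The time of the Th2 controls is unclear, so in every Th2 difference from DMSO, for flavopiridol and for JQ1, drug and time cannot be told apart. The share of probes above background was also lower on these arrays, as given above. Of other cell types' markers, 3 of 4 B cell markers were lower (median -1.40), and 1 of 2 CD8 T cell markers and the 1 natural killer marker tested (0.91) were higher. Of the 2 myeloid markers tested 1 was higher and 1 lower. The part of these shifts in the differences was not tested. Nfkbia was lowered most. Its log2 ratio to naive cells under 10 µM flavopiridol was -4.94 in unstimulated Th1, -3.54 in reactivated Th1, -4.24 in unstimulated Th2 and -1.72 in reactivated Th2 cells, against 1.61, 1.80, -0.11 and 1.63 with DMSO. Every treated array lay below every control array, and the 4 differences were -6.55, -5.34, -4.13 and -3.35 (adjusted p = 0.000514). Of all genes 36.3% were lower in 4 of 4 contexts.

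Among the subunits Rela fell by 2.93 (SE 0.33, adjusted p = 0.000205), with treated levels of -2.21, -2.05, -1.84 and -2.04 in the same order of contexts. Relb fell by 2.73 (SE 0.28, adjusted p = 0.000123) to levels between -1.08 and -0.80. Nfkb2 fell by 2.63 (SE 0.35, adjusted p = 0.000421) to levels between -0.71 and -0.14. Treated levels of these 3 subunits spanned less than 1 log2 unit each, although their DMSO levels differed between contexts by 1.87 for Rela, 1.92 for Relb and 2.61 for Nfkb2. Nfkb1 fell by 1.92 (SE 0.49, adjusted p = 0.0106), but unevenly, with -1.07 and -0.30 in unstimulated and -3.13 and -3.20 in reactivated Th1 and Th2 cells. With slide as a random block its adjusted p was 0.0572, and the call was also lost without either reactivated context (adjusted p = 0.0624 and 0.0575). Rel was well above background on 2 of 12 arrays of this fit and was not tested.

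Of the other inhibitors, Nfkbie fell by 2.03 (SE 0.34, adjusted p = 0.0014) and Bcl3 by 2.21 (SE 0.39, adjusted p = 0.00172), both lower in 4 of 4 contexts. Bcl3 reached -1.94, -2.07, -2.14 and -2.39, so the Th1 and Th2 levels that stood 2.59 apart without drug in unstimulated cells were close together with it. Nfkbid fell by 2.49 (SE 0.80, adjusted p = 0.0296), and the adjusted p was 0.112 with slide as a random block, 0.145 without the reactivated Th1 and 0.0552 without the reactivated Th2 context. Nfkbiz differed by -1.21 and -1.41 in Th1 and by 0.55 and 0.47 in Th2 cells and did not pass the test (mean -0.40, adjusted p = 0.421). It was well above background on 3 of 4 treated arrays, so the difference from the other, an unstimulated one, is a bound. The direction of Nfkbiz thus followed the cell type, and the test of that difference gave -1.82 with an adjusted p of 0.18 (unadjusted p = 0.00131), in a comparison where 0.0161% of all genes were called. The median of the members was -2.49 and that of all genes tested -0.22. On the spike-in scale the median of all genes was -1.35, 1.08% of the called genes were raised in place of 31.4%, and Nfkbiz was lowered.

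The lower dose gave similar sizes for several members. Flavopiridol at 1 µM lowered 7 of 9 members, against 35.5% of all genes, and used the same DMSO arrays. Of the markers, 3 of 4 of B cells (median -1.44) and 2 of 5 of naive T cells were lower. The 2 CD8 T cell markers and the 1 natural killer marker tested (0.92) were higher. Of 6 T cell markers 1 was higher and 2 were lower. The part of these shifts was not tested. Rela fell by 3.87, Bcl3 by 2.84, Relb by 2.69, Nfkb2 by 2.60, Nfkbie by 2.35 and Nfkb1 by 1.52 (adjusted p = 0.028). The Nfkb1 call was lost in 10 of 18 alternatives, among them slide as a random block (adjusted p = 0.112) and leaving out the unstimulated Th1 (0.0505), reactivated Th1 (0.14) or reactivated Th2 context (0.103). Nfkbia fell by 4.02 (adjusted p = 0.00114), with differences of -6.76 and -3.63 in unstimulated and reactivated Th1 and -4.12 and -1.58 in Th2 cells. Nfkbid differed by -4.07 and -0.20 in unstimulated Th1 and reactivated Th2 cells, the largest and smallest of the 4 differences (adjusted p = 0.0561). Between the doses 0 of 9 members passed the test by limma, and 1.88% of all genes were called. An unadjusted p below 0.05 was found for 1 of 9 members and for 11.5% of all genes. That member was Rela, higher at 10 than at 1 µM in 4 of 4 contexts, by 0.58 to 1.20 (mean 0.94, unadjusted p = 0.0212, adjusted p = 0.283). Nfkbid was higher at 10 µM in the unstimulated contexts (1.92 in Th1 and 1.44 in Th2) and lower in the reactivated ones (-2.24 and -2.80).

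The difference of the flavopiridol effect between reactivated and unstimulated cells was tested directly. It passed for 2 members, Nfkb1 (-2.49, SE 0.32, adjusted p = 0.00504) and Nfkb2 (-1.64, SE 0.39, adjusted p = 0.0303), against 6.93% of all genes in that direction. The mean drug effect on Nfkb1 was -0.68 in unstimulated and -3.17 in reactivated cells, and on Nfkb2 -1.81 and -3.45. The corresponding differences for Rela (-1.37, adjusted p = 0.0572) and Nfkbid (-2.27, adjusted p = 0.0914) did not pass. With any context left out, at most 1 member passed this test. Over all 17 alternatives the Nfkb2 call was lost in 9 and the Nfkb1 call in 2. Of the markers, 3 of 6 of T cells, 2 of 5 of naive T cells and 1 of 4 of B cells were higher. Their part was not tested.

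Other pathway genes under 10 µM flavopiridol were mostly lowered. Among kinases and adaptors 8 of 12 fell, with Bcl10 (-2.88) and Map3k14 (-2.15) furthest, and 1 rose, Ikbkb (0.48). Among TRAF, cIAP and ubiquitin ligase genes 10 of 11 fell, with Traf1 (-2.49) and Traf2 (-2.06) furthest, and Rbck1 rose (0.46). Among further inhibitors 6 of 9 fell, with Tnfaip3 (-3.70) and Tnip1 (-2.45) furthest, and none rose. Among textbook targets 7 of 11 fell, with Cd83 (-4.36) and Irf1 (-4.30) furthest, and the interleukin 2 receptor gene Il2ra rose (1.21). The medians of the 4 lists were -0.55, -1.16, -1.02 and -1.81, beside -0.22 for all genes, of which 15.4% rose and 33.5% fell.

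**Figure D3:**
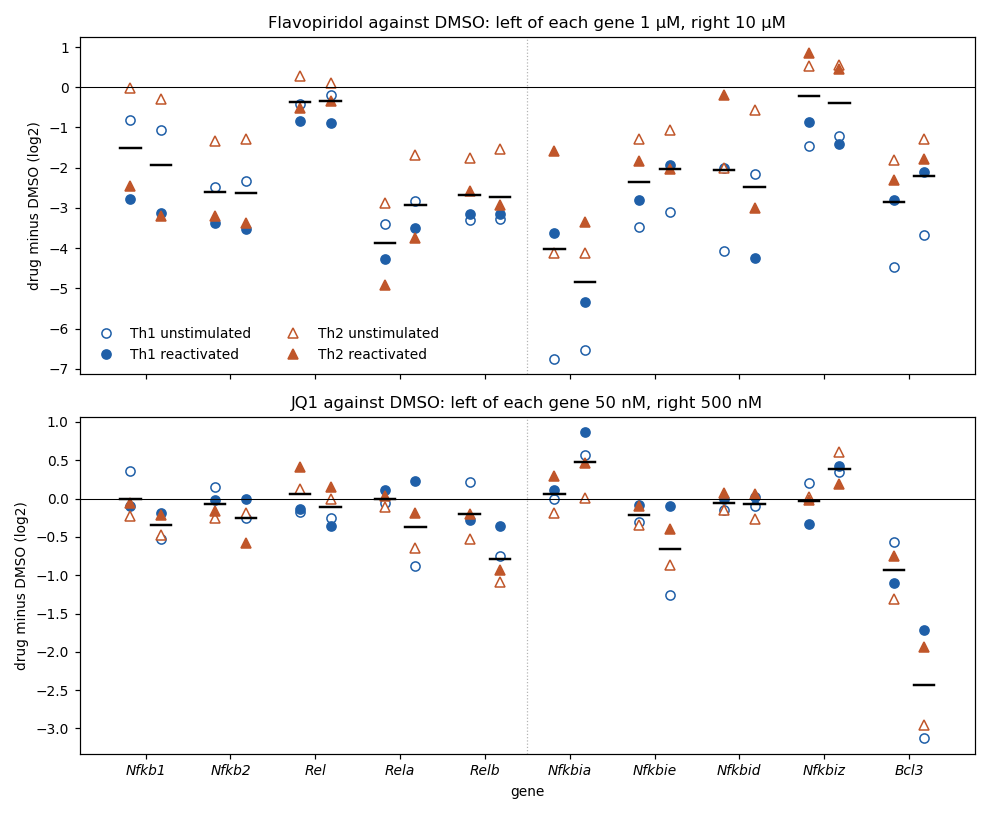
Drug minus DMSO log2 ratio (vertical axis) of each gene (horizontal axis) for flavopiridol (top, 1 µM left, 10 µM right) and JQ1 (bottom, 50 nM left, 500 nM right), with open symbols for unstimulated, filled symbols for reactivated cells, shapes for Th1 and Th2 and bars for means. Nfkbia points reach -6.55 at 10 µM flavopiridol, whereas with 500 nM JQ1 Bcl3 has the lowest points, from -3.13 to -1.71.

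JQ1 at 500 nM had another order of sizes. In the same 4 contexts it lowered 4 of 10 members and raised 2, against 29.9% and 17.7% of all genes, and the DMSO arrays were those used for flavopiridol. In the same comparison 6 of 6 T cell markers were lower (median -0.50), as were 3 of 4 B cell markers (median -1.01), 4 of 5 naive T cell markers (median -0.77), 2 of 2 CD8 T cell markers and the 1 natural killer marker tested, and their part in the members' changes was not tested. Bcl3 was lowered most, and its log2 ratios to naive cells with 500 nM JQ1 were -1.40 and -1.68 in unstimulated and reactivated Th1 and -3.81 and -2.55 in Th2 cells. The 4 differences from DMSO were -3.13, -1.71, -2.96 and -1.93 (adjusted p = 4.04e-05), and treated and control values did not overlap. Of all genes 31.8% were lower in 4 of 4 contexts. Of the subunits, Relb fell by 0.78 (SE 0.14, adjusted p = 0.00118), with differences from -1.09 to -0.36. Nfkb1 fell by 0.35 (SE 0.12, adjusted p = 0.0346), with -0.52 and -0.18 in Th1 and -0.48 and -0.22 in Th2 cells. The Nfkb1 call was lost without either Th2 context, and its second probe gave -0.10. Nfkb2 (-0.26, adjusted p = 0.0681) and Rela (-0.37, adjusted p = 0.0742) did not pass the test, nor did Rel, which has no measured size here because it was not well above background in unstimulated cells.

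Of the inhibitors besides Bcl3, Nfkbie fell by 0.65 (SE 0.16, adjusted p = 0.00597), with differences of -1.26 and -0.10 in unstimulated and reactivated Th1 and -0.86 and -0.40 in Th2 cells. Nfkbia was raised by 0.48 (SE 0.13, adjusted p = 0.0102), with differences of 0.57, 0.87, 0.01 and 0.46, but on the spike-in scale it differed by -0.062 or -0.089, and the call was lost without the unstimulated (adjusted p = 0.0541) or the reactivated Th1 context (0.0608). Nfkbiz was raised by 0.39 (SE 0.11, adjusted p = 0.0124), from 0.19 to 0.61, but on the spike-in scale it differed by -0.20 or -0.18, and the call was lost without the unstimulated Th2 context (adjusted p = 0.0777). The median of all genes tested was -0.07, and on the spike-in scale -0.64, where 1.75% of called genes were raised in place of 37.2%. Nfkbid differed by -0.07. In the Th1 contexts alone, which shared a slide with their controls, 2 members passed the test, Bcl3 (-2.42, adjusted p = 0.0108) and Nfkbia (0.72, adjusted p = 0.0155). That count is to be read beside the 2889 of 12228 genes called there, 1040 higher and 1849 lower. Relb there differed by -0.55 (adjusted p = 0.108).

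At 50 nM JQ1 0 of 10 members passed the test by limma, and 0.341% of all genes were called. An unadjusted p below 0.05 was found for 1 of 10 members and for 13.2% of all genes. That member was Bcl3, lower in 4 of 4 contexts by values from -1.31 to -0.57 (mean -0.93, unadjusted p = 0.0044, adjusted p = 0.157). Between 500 and 50 nM, 2 members were lower, Bcl3 (-1.50, adjusted p = 0.00179) and Relb (-0.59, adjusted p = 0.0105), against 20.6% of all genes. Nfkbia (0.42, adjusted p = 0.0276) and Nfkbiz (0.42, adjusted p = 0.0137) were higher, against 10.7%, and were -0.12 or -0.15 and -0.17 or -0.15 on the spike-in scale. Leaving out 1 context ended 3 of these calls, with an adjusted p of up to 0.129 for Nfkbia (either Th1 context), 0.0722 for Nfkbiz (reactivated Th1 or unstimulated Th2) and 0.0651 for Relb (unstimulated Th1 or reactivated Th2). Between these doses 4 of 6 T cell and 4 of 5 naive T cell markers were lower. So were 2 of 4 B cell and 1 of 2 CD8 T cell markers, while 1 of 3 myeloid markers was higher. Their part was not tested. At 24 hr in Th1 cells there was 1 pair of arrays for each state, on 1 slide, and no test. JQ1 differed from DMSO there by -3.20 in unstimulated and -0.77 in reactivated cells for Bcl3, by -2.01 and -0.37 for Relb, by -1.05 and 0.35 for Nfkbie, and by -0.89 and 0.53 for Nfkbia. All of these differences were lower in unstimulated than in reactivated cells.

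The same difference was tested over the 4 contexts of Th1 and Th2 cells. The JQ1 effect of Bcl3 was -3.04 in unstimulated and -1.82 in reactivated cells, a difference of 1.22 (SE 0.29, adjusted p = 0.0278). For Nfkbie it was -1.06 and -0.25 (difference 0.81, SE 0.19, adjusted p = 0.0257), and for Rela -0.76 and 0.03 (difference 0.78, SE 0.18, adjusted p = 0.0252). Of all genes 4.5% were called in that direction. On the spike-in scale the difference of Bcl3 was 0.051 or 0.029, that of Nfkbie -0.30 or -0.39 and that of Rela -0.39 or -0.41, and with any context left out at most 1 member passed this test. Neither drug's effect was found to differ between Th1 and Th2 cells. For JQ1, 0 of 10 members and 0% of all genes passed by limma, with an unadjusted p below 0.05 for 2 members and 7.02% of all genes. For flavopiridol 0 of 9 members passed, with such a p for 1 member and 12.9% of all genes.

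With 500 nM JQ1, 4 of 12 kinases and adaptors rose and 3 fell, among them Map3k14 (0.48), Map3k7 (0.30), Prkcq (-1.40) and Tab1 (-0.72). Of the TRAF, cIAP and ubiquitin ligase genes 6 of 11 fell and none rose, with Traf1 (-1.27) and Birc3 (-0.91) furthest. Of the further inhibitors 2 of 9 fell, Nfkbib (-0.53) and Tnfaip3 (-0.44), and of the textbook targets 6 of 11 fell, with Ltb (-2.36) and Cd83 (-1.70) furthest. The medians of the 4 lists were 0.11, -0.18, -0.16 and -0.55, beside -0.07 for all genes, of which 17.7% rose and 29.9% fell. At 50 nM none of the genes of the 4 lists passed the test.

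The drugs act on different proteins and were compared directly at their higher doses at 6 hr in the 4 contexts, as concentrations that differ and cannot be matched. No array of one drug shared a slide with its counterpart of the other, so slide and drug cannot be told apart here either. Under 10 µM flavopiridol 6 of 9 members were lower than under 500 nM JQ1, against 30.7% of all genes. In the same comparison 4 of 6 T cell markers (median 0.78), 1 of 2 CD8 T cell markers and the 1 natural killer marker tested (2.12) were higher, and their part was not tested. Of the genes called, 37.9% were higher, and 2.18% or 6.83% on the spike-in scale. The members' differences were -5.32 for Nfkbia (adjusted p = 0.00123), -2.57 for Rela, -2.42 for Nfkbid (adjusted p = 0.019), -2.37 for Nfkb2, -1.95 for Relb and -1.38 for Nfkbie. The Nfkbid call was lost without the reactivated Th2 context and the Nfkbie call without the reactivated Th1 context (adjusted p = 0.0506 for both). Bcl3 differed by -0.55 and -0.39 in unstimulated and reactivated Th1 and by 1.67 and 0.16 in Th2 cells (mean 0.22, adjusted p = 0.656). Nfkb1 differed by -1.57 (adjusted p = 0.0686). Bcl3 and Nfkb1 were thus lowered by each drug against DMSO with no call between the drugs, which does not show that they act alike.

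**Figure D4:**
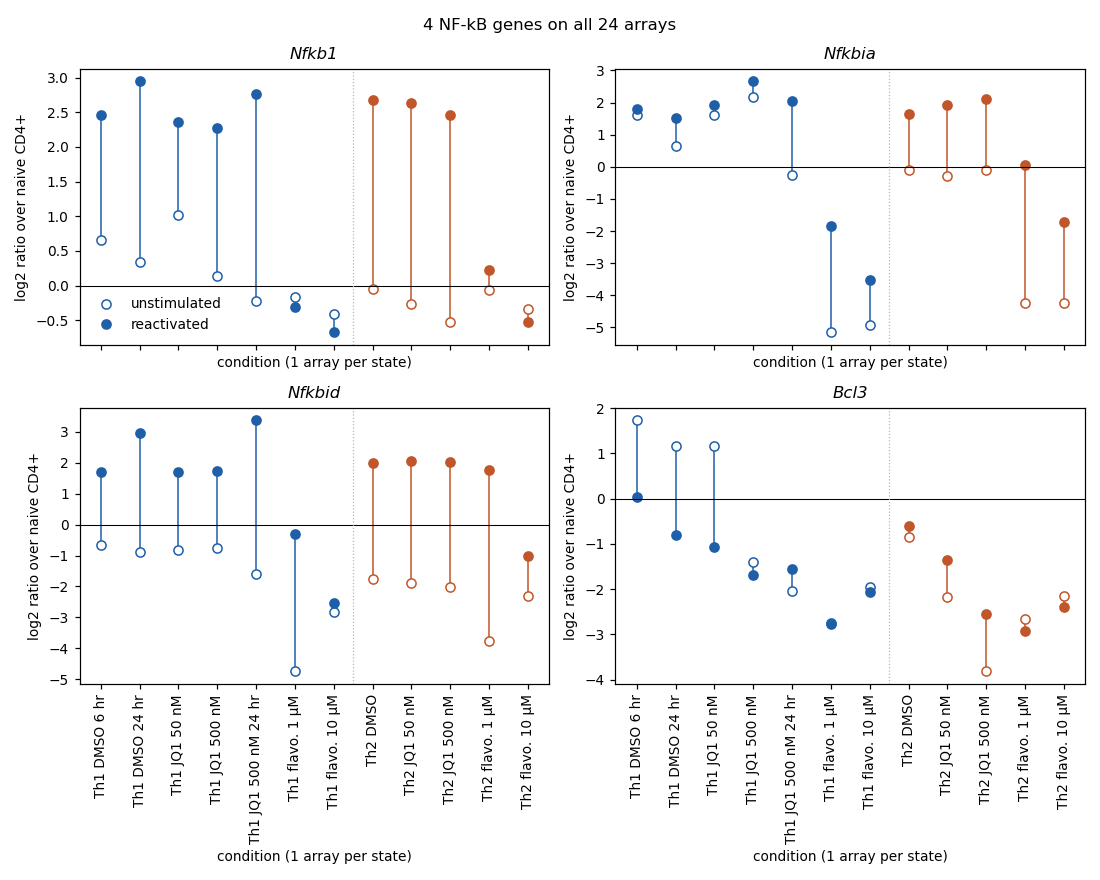
Log2 ratio to naive T cells (vertical axis) of Nfkb1, Nfkbia, Nfkbid and Bcl3 on all 24 arrays, ordered by treatment (horizontal axis), with open symbols for unstimulated and filled symbols for reactivated cells. Nfkb1 lies between -0.67 and 0.22 on all 8 flavopiridol arrays, and Nfkbia reaches -5.14 in unstimulated Th1 cells with 1 µM flavopiridol.

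Th1 and Th2 cells were compared over 10 matched conditions, of which only the DMSO conditions had both cell types on 1 slide. Th1 cells had higher levels of 2 members, against 17% of all genes. Nfkb2 was higher in 10 of 10 conditions, by 0.37 to 2.00 (mean 0.92, SE 0.17, adjusted p = 0.00124). Bcl3 was higher in 9 of 10 conditions, by -0.09 to 3.33 (mean 1.07, SE 0.34, adjusted p = 0.0267). Within the slide that held both cell types with DMSO, the differences were 1.59 in unstimulated and 0.54 in reactivated cells for Nfkb2, and 2.59 and 0.64 for Bcl3. The time of those Th2 arrays is unclear, so cell type and time cannot be told apart in the DMSO conditions. The Bcl3 call was lost without unstimulated DMSO (adjusted p = 0.0583) or without unstimulated 500 nM JQ1 cells (adjusted p = 0.0597). Relb was higher in 8 of 10 conditions and did not pass the test (mean 0.77, adjusted p = 0.0649). Summed markers of natural killer cells and CD8 T cells were higher in Th1 cells in 10 of 10 conditions. Of the natural killer markers, Klrb1c was above background on 0 arrays and Ncr1 on 1, so that sum rests on Klrd1. Summed myeloid markers were higher in Th2 cells in 9 of 10 conditions, with Lyz2 above background on 0 arrays, and summed B cell markers were higher in Th2 cells in 10 of 10 conditions (10.1 to 12.2 log2 units of Cy3, against 8.81 to 10.5 in Th1 cells). Their part in the differences of Nfkb2 and Bcl3 was not tested.

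The 24 hr DMSO arrays of Th1 cells lay on another slide than the 6 hr arrays, so time and slide cannot be told apart. In reactivated cells Nfkbid was 1.24 higher at 24 than at 6 hr. In unstimulated cells Relb was 1.01 and Nfkbia 0.97 lower at 24 hr, and Bcl3 was lower in both states (-0.57 unstimulated and -0.82 reactivated).

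Genes with the most similar profile were found for each member by Pearson correlation of the log2 ratio over the 24 arrays. The arrays share the reference and the conditions, so these values describe this set of arrays and carry no test. Among the subunits, Nfkb1 was most like Stx6 (r = 0.980), Nfkb2 most like Rgs1 (r = 0.991), Rela most like Mul1 (r = 0.988), Relb most like Zfp948 (r = 0.982) and the dim Rel most like Tagap1 (r = 0.905). Among the inhibitors, Nfkbia was most like Tob2 (r = 0.961), Nfkbid most like Rgcc (r = 0.960), Nfkbie most like Nab2 (r = 0.955), Bcl3 most like Gpr18 (r = 0.876) and Nfkbiz most like Jun (r = 0.865). Bcl3 and Nfkbiz were the members with the least similar nearest gene. Between members the highest correlations were those of Relb with Nfkb2 (r = 0.95) and with Nfkbie (r = 0.95), and the lowest that of Bcl3 with Nfkbid (r = 0.24).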

How the data were processed

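The 24 two-colour Agilent arrays carried sample cRNA in Cy3 and naive T cell reference cRNA in Cy5. Per the file headers the deposited intensity values came from Feature Extraction 10.7.1.1 with a probe grid on genome build mm9. A second file deposited by the authors holds log2 ratios, whose normalization is not given in the sources used here. Its columns correlated with the values used here at r = 0.981 to 0.996 and had medians from -0.017 to 0.014, and it served as an alternative, as did the deposited log10 ratio of the scanner software. Whether all reference RNA came from 1 pool is not given in the sources used here.

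Median spot and background intensities were corrected with normexp (offset 50) and normalized by loess within each array, control spots were left out, and log2 Cy3 over Cy5 was taken. The brightest probe stood for a gene. limma 3.58.1 (R 4.3.3) was fitted over all genes well above background in Cy3 on at least 3 arrays of a fit, with the pair, context or matched condition as a block, and a call meant a Benjamini-Hochberg adjusted p below 0.05. The 3 slides of 8 arrays were tried as a random block. The fits were tested on simulated data. No 2 arrays share a condition, so p-values measure the spread between conditions. All 10 members are reported. Of each pathway list up to 2 called genes in each direction are named (1 result is not reported here), and similar profiles were sought among genes above background on at least 12 arrays. The members and lists were chosen with earlier results of these data known.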

Additional observations from a re-analysis of the deposited data

Results flagged for a closer look

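In 9 results an effect differed between groups. In 5 of them the difference itself was tested with limma. The effect of 10 µM flavopiridol differed between reactivated and unstimulated cells for Nfkb1 (-2.49) and Nfkb2 (-1.64), lower in reactivated cells for both genes in Th1 and in Th2 cells. The effect of 500 nM JQ1 differed between these states for Bcl3 (1.22), Nfkbie (0.81) and Rela (0.78), less negative or higher in reactivated cells, but on the spike-in scale these differences were 0.051 or 0.029 for Bcl3, -0.30 or -0.39 for Nfkbie and -0.39 or -0.41 for Rela, none of them called. In the other 4 the pairs of Th1 and of Th2 cells moved in opposite directions on reactivation, and the difference was not tested. With DMSO, Bcl3 changed by -1.96 and -1.71 in the Th1 pairs and by 0.24 in the Th2 pair, a difference of -2.07. With 50 nM JQ1, Th1 minus Th2 was -2.64 for Relb (-0.62 and 2.01), -1.42 for Nfkbie (-0.29 and 1.13) and -3.04 for Bcl3 (-2.24 and 0.80). The time of the Th2 DMSO arrays is unclear, and the 50 nM pairs of Th1 and Th2 cells lay on different slides.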

How the results depend on the processing

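Each condition had 1 array, so errors rest on agreement between conditions, flavopiridol and its DMSO controls lay on different slides, loess assumes that most genes keep their ratio, and Rel is limited by its low signal. Of the counts of members called, 260 recomputed counts stayed within 1.5 times the main count and 47 moved. Of single member values, 2528 stayed on their side of the threshold (called values in the same direction, values called in neither setting whatever their sign), 130 lost a call, 115 gained one and 22 values called in at least 1 of the compared settings reversed. The causes were not tested. Leaving out 1 pair, context or condition gave 1 to 8 members against naive cells before reactivation (4 in the main setting), 6 to 7 after it (7), 5 to 8 for reactivation without drug (7), 7 to 9 with 500 nM JQ1 (9) and 0 to 2 with flavopiridol (0). It gave 6 to 8 for 10 µM flavopiridol (8), 6 to 7 for 1 µM (7), 4 to 7 for 500 nM JQ1 (6), 2 to 4 for 500 against 50 nM (4), 5 to 7 for flavopiridol against JQ1 (6), 0 to 1 for each drug effect by reactivation (2 and 3), 1 to 3 for Th1 against Th2 (2), and 0 to 0 for the doses of flavopiridol, for 50 nM JQ1 and for both drug effects by cell type. Spike-in centring and a spike-in shift after loess gave 10 and 9 members against naive cells before reactivation, 4 and 3 for reactivation with JQ1, 5 and 3 with flavopiridol, 1 and 0 for the flavopiridol effect by reactivation, and 7 and 6, all lower, for the JQ1 effect by reactivation. Of all genes these settings called 8916 and 7413 of 12526 against naive cells before reactivation. They called 1406 and 987 of 12130 for reactivation with JQ1 and 1232 and 640 of 10918 with flavopiridol. Without a block there were 4 members for reactivation without drug, 5 with JQ1, 0 for 500 nM JQ1, 0 for 500 against 50 nM, 1 and 0 for the flavopiridol and JQ1 effects by reactivation, and 0 for Th1 against Th2. A change of at least 2-fold in every pair or context was found for 3 members on reactivation without drug, 4 with JQ1, 1 with flavopiridol, 1 for 500 nM JQ1, 0 for 500 against 50 nM, 3 for flavopiridol against JQ1 and 0 for Th1 against Th2. The share of all genes was not computed for that rule. Counts of members in this section that stand without such a share do not set the members apart from all genes. Median centring gave 2 members for reactivation with flavopiridol and 1 for the JQ1 effect by reactivation, and genes above background on every array gave 1 for the former. For the flavopiridol effect by reactivation, the software's ratio gave 1, the ratios of the authors 1 and slide as a random block 4. For the JQ1 effect by reactivation, Cy3 alone gave 1 and the software's ratio 0. Th1 arrays alone gave 2 for 500 nM JQ1. Reversed values were Rela before reactivation against naive cells with median centring (-0.54), and, with spike-in centring and the shift in turn, Nfkbia (-0.062 and -0.089) and Nfkbiz (-0.20 and -0.18) for 500 nM JQ1, and Nfkbia (-0.12 and -0.15) and Nfkbiz (-0.17 and -0.15) for 500 against 50 nM. For the JQ1 effect by reactivation they were Nfkb1 (-0.79 and -0.89), Rel (-0.80 and -1.17), Rela (-0.39 and -0.41), Relb (-0.87 and -0.92), Nfkbie (-0.30 and -0.39) and Nfkbid (-0.90 and -0.97) with both, and Nfkbia (-0.80) with centring. No paired analysis by replicate number was possible because each condition had 1 array and the labels number no replicates. Genes called numbered 4075 to 11294 for 10 µM flavopiridol (6075 in the main setting) and 899 to 6564 for 500 nM JQ1 (6142) over the alternatives, and 4 to 10828 for the JQ1 effect by reactivation (1307).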
